A study of Homo sapiens with 8 samples.

Results

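The genes described are 10 members of the KLF (Krüppel-like factor) family, KLF2, KLF3, KLF4, KLF5, KLF6, KLF7, KLF9, KLF10, KLF12 and KLF13, seen through acetylation of lysine 27 of histone H3 (H3K27ac) in MDA-MB-231 cells with and without ARID1A. Peaks were taken where they lay in the RefSeq span of a member or within 100 kb of it, which gave 138 of the 82349 peaks used from both lists: 70 of 42552 in the ARID1A knockout list and 68 of 39797 in the control list. The 8 libraries formed 4 groups of 2, namely ARID1A knockout immunoprecipitate and input, and control immunoprecipitate and input. MDA-MB-231 is an established line of triple-negative breast cancer, and ARID1A is a DNA-binding subunit of BAF, a SWI/SNF complex that moves nucleosomes. The labels did not say whether the knockout was 1 clone or a pool, how it was made, or whether replicates were separate cultures, and peak lists of a histone mark do not show whether ARID1A was lost. The labels were also at odds on the antibody, since the sample characteristics named anti-H3K27ac while the extraction protocol, worded alike for every library, named H3K4me3. The mark is called H3K27ac here after the titles and characteristics.

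KLF proteins are transcription factors with a conserved block of zinc fingers at the carboxyl terminus, which binds CACCC sequences and GC-rich boxes. Outside the fingers they differ: KLF2, KLF4, KLF5, KLF6 and KLF7 are mainly known as activators, KLF3 and KLF12 carry a motif that recruits the co-repressor CtBP, and KLF9, KLF10 and KLF13 can recruit the co-repressor SIN3A. H3K27ac marks active promoters and enhancers, so a peak over a KLF gene locates acetylated chromatin and does not measure the RNA or the protein.

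Each genotype had 1 peak list. Every value below is therefore 1 value per genotype without a spread between replicates, so the genotypes were compared without a test. A peak is called shared if it overlapped a peak of the other list by at least 1 bp, and otherwise knockout-only or control-only. Pileup is the fragment coverage that the authors gave for a peak. Its median over the whole list was 32.0 in knockout and 22.7 in control, and how the lists were scaled to each other is not given in the sources used here. Pileups are accordingly read within a list, with their percentile in it, and a higher pileup in 1 list than in the other is no sign of more acetylation.

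All 10 KLF genes were acetylated in both genotypes. Each had a peak in the gene or within 1 kb of it in the knockout list and in the control list, as did 69.3% of all 19970 protein-coding genes. The RefSeq promoter table held 15 transcription start sites of 8 members and none for KLF3 and KLF10. Of these start sites, 12 lay inside a peak of both lists, 2 inside a knockout peak alone, 0 inside a control peak alone, and 1 in neither. Over all 34961 start sites of the table, 44.3% lay inside a peak of both lists, 1.84% inside a knockout peak alone and 1.51% inside a control peak alone. The 2 start sites in a knockout peak alone belonged to KLF5 and KLF12.

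The promoter windows of these genes, from RefSeq on GRCh38.p14, run from 250 bases before to 50 bases after a start site and are shown 5′ to 3′ on the strand of the gene. The alternative starts of KLF5 and KLF12 that differed between the lists are set beside the starts of the same genes that were acetylated in both, and KLF6 and KLF4 are added as the genes with the longest acetylated sequence and with a strong upstream peak. Capitals mark CACCC (or GGGTG on the other strand), the GC box GGGCGG (or CCGCCC) and the AP-1 motif TGANTCA. Where matches overlap, the capitals run together.
KLF5 upstream start, plus strand, chr13:73054726-73055025: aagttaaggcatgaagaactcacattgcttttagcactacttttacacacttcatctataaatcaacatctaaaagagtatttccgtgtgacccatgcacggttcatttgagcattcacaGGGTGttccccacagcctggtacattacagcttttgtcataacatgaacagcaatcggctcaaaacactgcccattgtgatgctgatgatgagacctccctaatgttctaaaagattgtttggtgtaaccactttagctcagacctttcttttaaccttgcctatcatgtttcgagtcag
KLF5 downstream start, plus strand, chr13:73058755-73059054: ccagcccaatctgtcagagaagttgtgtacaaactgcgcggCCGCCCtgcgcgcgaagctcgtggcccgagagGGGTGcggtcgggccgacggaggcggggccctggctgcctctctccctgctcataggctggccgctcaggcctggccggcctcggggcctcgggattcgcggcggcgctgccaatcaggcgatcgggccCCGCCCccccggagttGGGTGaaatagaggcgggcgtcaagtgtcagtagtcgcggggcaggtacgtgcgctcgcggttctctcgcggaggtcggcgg
KLF12 internal start, minus strand, chr13:74026839-74027138: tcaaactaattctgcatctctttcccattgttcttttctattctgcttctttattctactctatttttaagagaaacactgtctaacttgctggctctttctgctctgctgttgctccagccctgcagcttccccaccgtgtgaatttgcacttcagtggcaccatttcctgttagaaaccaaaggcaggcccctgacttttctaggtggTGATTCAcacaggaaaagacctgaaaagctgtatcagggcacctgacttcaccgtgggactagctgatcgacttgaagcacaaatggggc
KLF12 start in the main peak, minus strand, chr13:74134355-74134654: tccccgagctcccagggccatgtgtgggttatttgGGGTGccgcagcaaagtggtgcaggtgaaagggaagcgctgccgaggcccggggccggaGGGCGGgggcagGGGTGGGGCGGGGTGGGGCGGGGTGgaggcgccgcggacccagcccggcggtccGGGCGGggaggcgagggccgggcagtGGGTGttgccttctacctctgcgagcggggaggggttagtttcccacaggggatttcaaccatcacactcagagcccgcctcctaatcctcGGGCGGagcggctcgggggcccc
KLF6, minus strand, chr10:3785160-3785459: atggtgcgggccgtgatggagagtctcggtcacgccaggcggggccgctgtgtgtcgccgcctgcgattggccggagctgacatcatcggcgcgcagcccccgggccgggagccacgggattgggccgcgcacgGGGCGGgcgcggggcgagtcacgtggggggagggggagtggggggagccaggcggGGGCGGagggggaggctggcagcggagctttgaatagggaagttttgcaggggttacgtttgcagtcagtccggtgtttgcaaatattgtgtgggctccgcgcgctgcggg
KLF4, minus strand, chr9:107489720-107490019: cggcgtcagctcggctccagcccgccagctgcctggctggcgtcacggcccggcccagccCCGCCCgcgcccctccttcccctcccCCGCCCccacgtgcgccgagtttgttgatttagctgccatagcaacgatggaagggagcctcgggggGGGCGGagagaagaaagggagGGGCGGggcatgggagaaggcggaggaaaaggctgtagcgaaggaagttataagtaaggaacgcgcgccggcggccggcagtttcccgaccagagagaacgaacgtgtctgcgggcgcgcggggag

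The upstream start of KLF5 held 1 CACCC match and 0 GC boxes, at 40.7% G and C, and the downstream start held 2 of each at 71.3%. The internal start of KLF12 held 0 CACCC matches, 0 GC boxes and 1 AP-1 match at 46.0% G and C, whereas the printed start in the main peak held 5 CACCC matches and 5 GC boxes at 72.3%. The other start in that peak, at 74133929, held 5 CACCC matches and 0 GC boxes at 65%, so it was level with the internal start in GC boxes. Starts low in G and C also lay in peaks of both lists. The KLF9 start (32.7%) and the KLF7 start at 207134137 (43%) held 0 CACCC matches and 0 GC boxes. The KLF7 start at 207167246 (42.7%) held 1 CACCC match and 0 GC boxes. The remaining starts in peaks of both lists had 56.7% to 80.7%, and the median over all promoter windows was 58.7%. Among all 15 windows of the KLF genes 8 held CACCC, 7 a GC box and 1 the AP-1 motif, on either strand. The shares over all promoter windows of the table were 59.9% for CACCC, 45.0% for the GC box and 7.68% for the AP-1 motif. The other motifs searched were CATTCC (TEAD), found in 1 of the 15 windows against 14.0% of all, CCAAT in 7 (34.6%), TATAAA in 1 (11.5%), ACGTG in 6 (21.4%) and CGCG in 8 (49.9%). Several windows belong to 1 gene, so they are not independent, and a match is a description and no binding site. The KLF6 window held 2 GC boxes and the KLF4 window 4, with 0 CACCC matches in both.

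Most peaks around the KLF genes were common to both genotypes. Of the 70 knockout peaks, 55 were shared and 15 were knockout-only, or 21.4% (95% exact interval 12.5 to 32.9), beside 22.4% of all knockout peaks. Of the 68 control peaks, 58 were shared and 10 were control-only, or 14.7% (7.28 to 25.4), beside 18.0% of all control peaks. Near any protein-coding gene, within 100 kb, the shares were 20.5% and 17.4%. Both values for the KLF genes were thus close to the background. KLF12 alone held 5 of the 15 knockout-only peaks, and 16.7% of the knockout peaks of the other 9 genes were knockout-only.

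Genotype-only peaks of the KLF genes were mostly weak, as in the whole lists. Fold enrichment, the authors' value for a peak over the background estimated from its input, placed 14 of the 15 knockout-only peaks and 9 of the 10 control-only peaks in the lower 50% of their list. Over all peaks 92.4% of the 9526 knockout-only and 95.8% of the 7155 control-only peaks lay there, so the KLF counts were near the background. The exceptions were a knockout-only peak beside KLF7 (fold 7.73, percentile 64.4) and a control-only peak upstream of KLF4 (fold 7.09, percentile 63.8). With both lists restricted to their upper 50% by fold before classing, the order of the counts turned, to 4 knockout-only of 32 peaks (12.5%) and 8 control-only of 37 peaks (21.6%). Over all peaks under the same restriction the shares were 18.1% knockout-only and 13.1% control-only, in the order of the unrestricted lists. The KLF counts of 4 and 8 are small and no interval was computed for them. The turned order is therefore not read as a result about the KLF genes. All but 1 of these KLF peaks in each list overlapped a weaker peak of the other genotype. Most did so over all peaks too. Only 721 of 3852 knockout-only and 303 of 2605 control-only peaks under the restriction had no partner in the whole other list.

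**Figure D1:**
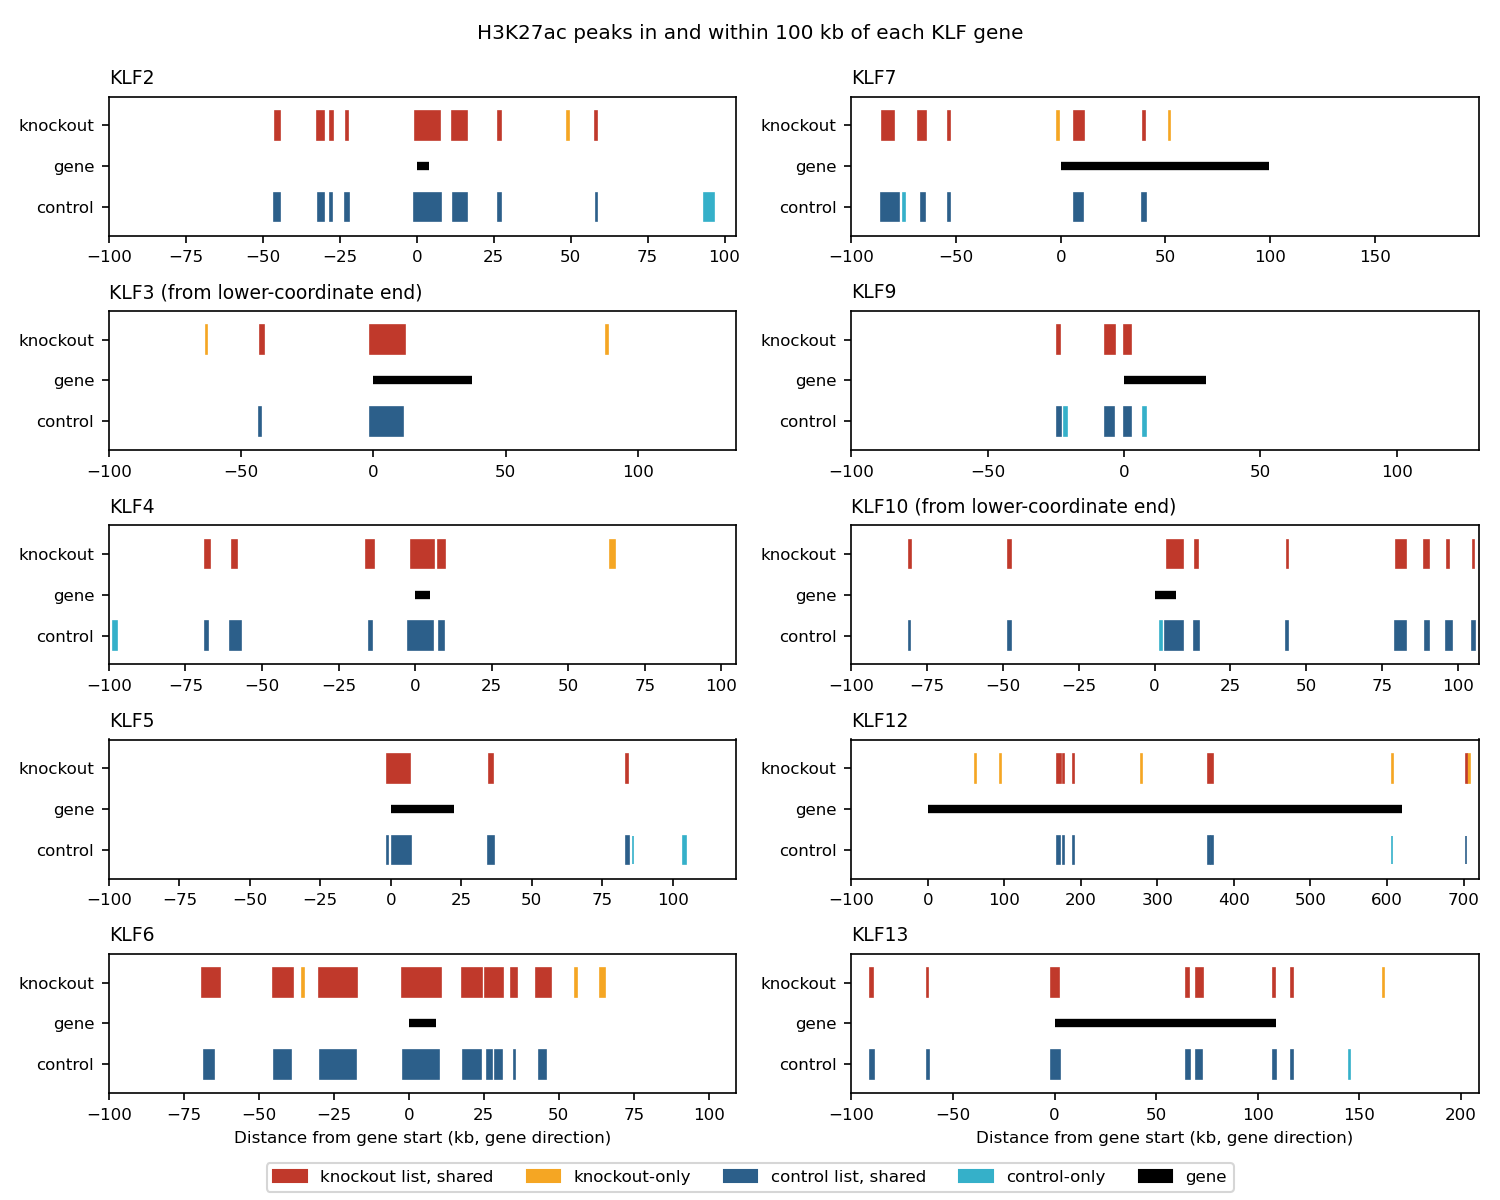
Positions of all 138 peaks. The horizontal axis gives the distance in kb from the gene start in the direction of the gene (for KLF3 and KLF10, whose strand was not in the promoter table, from the lower-coordinate end). Each panel shows the knockout list above the gene and the control list below it, with orange (knockout-only) and light blue (control-only) for peaks without a partner. KLF6 has the longest acetylated stretches, and the 5 knockout-only peaks of KLF12 are spread over the gene and its flank.

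KLF6 had the most acetylated sequence of the 10 genes in both genotypes. KLF6 is an early-response gene known as a growth suppressor in several tumours. In its window, on chromosome 10 around the gene at 3775996 to 3785209, the knockout list held 11 peaks with a summed length of 61.1 kb and the control list 9 peaks with 45.4 kb. All of the control length (100%) lay inside knockout peaks, and 74.4% of the knockout length lay inside control peaks. The share of length inside the other list was not computed over the whole lists. It has no background beside it, here or for the genes below. The knockout peak was the longer of the pair in 7 of 7 pairs in which 1 knockout peak met 1 control peak. Over the whole lists this was so for 51.1% of 30509 such pairs, and for the 10 KLF genes together for 25 of 52.

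The KLF6 gene itself was covered from end to end in both lists. The knockout peak (3774380 to 3787483) was 13.1 kb long with a pileup of 249.5, at percentile 99.8 of its list, and the control peak (3775064 to 3787185) was 12.1 kb long with a pileup of 72.1, at percentile 92.4. An upstream peak 17.2 kb from the gene was as broad. It spanned 12.6 kb in knockout (3802392 to 3815003, pileup 253.6, percentile 99.9) and 11.9 kb in control (3802873 to 3814788, pileup 91.3, percentile 96.8), and had the highest pileup of this locus in both lists. A further upstream peak began 38.5 kb from the gene in knockout (3823744 to 3830432, pileup 204, percentile 99.4) and 39.4 kb from it in control (3824651 to 3830247, pileup 88.4, percentile 96.3).

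On the downstream side of KLF6 the control list was more broken up at a single site. A knockout peak of 6.17 kb (3753741 to 3759914) covered 2 control peaks, of 2.12 kb (3754207 to 3756321) and 1.51 kb (3757514 to 3759022). Around the 10 KLF genes 3 of 70 knockout peaks and 0 of 68 control peaks met several peaks of the other list. Over the whole lists 607 of 42552 knockout peaks and 888 of 39797 control peaks did so. The KLF counts are too few to show an order between the lists. A knockout peak of 1.89 kb (3749147 to 3751034) stood over a control peak of 0.324 kb (3749806 to 3750129), which had a pileup of 8.73 and lay at percentile 5.85 of its list. The 3 knockout-only peaks of KLF6 lay at 3719907 to 3721319 (pileup 39.4), 3729023 to 3729905 (28.0) and 3820143 to 3820951 (16.3), and the control list had no peak of its own here. The window of 100 kb cut through further acetylation: the next peaks outside it, both shared, lay 101 kb from the gene, with a pileup of 139 in knockout and 71.0 in control.

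**Figure D2:**
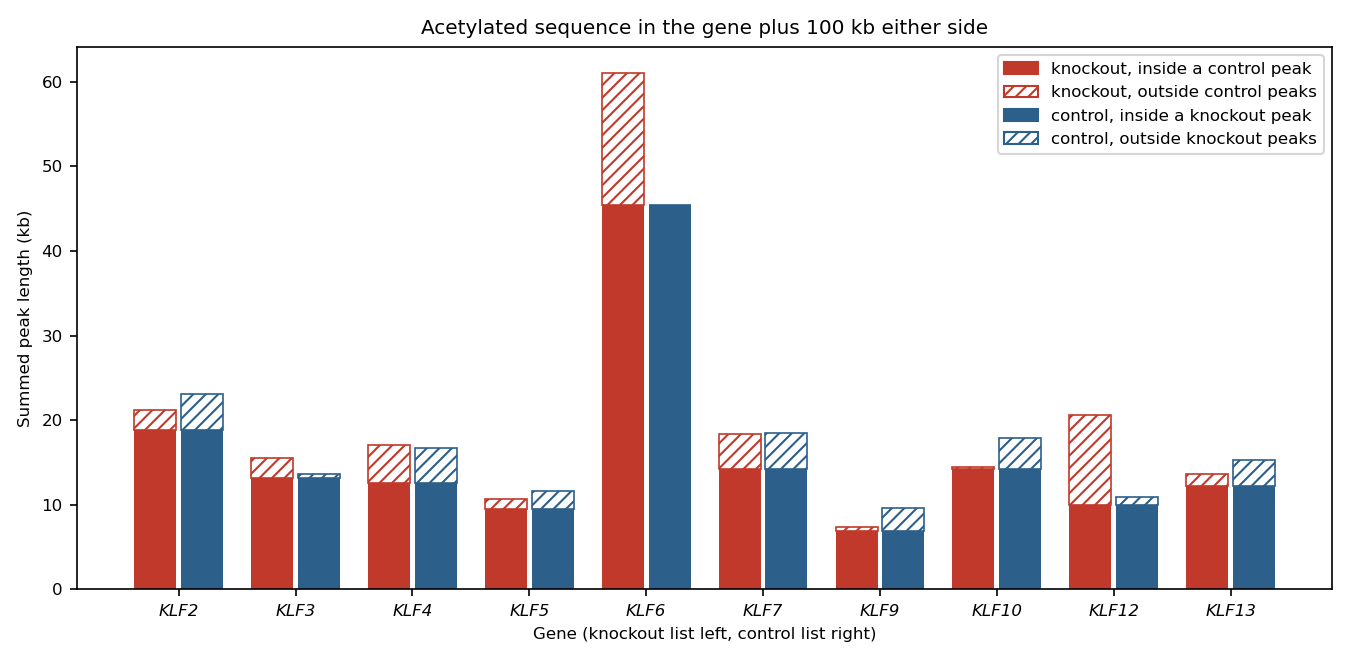
Summed peak length in kb per gene, with the knockout list left and the control list right of each pair. Solid bars are sequence also inside a peak of the other list and hatched bars sequence outside it. KLF6 stands at 61.1 kb in knockout and 45.4 kb in control, and the hatched part is largest relative to the bar for KLF12 in knockout.

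KLF2 was acetylated over the gene and still more strongly just beyond its 3′ end. KLF2 maintains quiescence in lymphocytes and endothelium and is induced by blood flow through the kinase ERK5. The gene (chromosome 19, 16324826 to 16328685) lay inside a knockout peak of 8.32 kb (16324210 to 16332527, pileup 47.2, percentile 63.6) and a control peak of 8.59 kb (16324101 to 16332690, pileup 27.8, percentile 58.0). The downstream peak, 7.57 kb from the gene, had a pileup of 169 in knockout (16336252 to 16341084, percentile 98.1) and 82.7 in control (16336572 to 16341099, percentile 95.3). Its pileup was 3.59 times that of the peak over the gene in the knockout list and 2.98 times in the control list.

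Of the 9 peaks of each list around KLF2, 8 were shared. The knockout-only peak (16373564 to 16374379, pileup 8.38) was among the weakest of its list, at percentile 0.333, and the control-only peak was 3.02 kb long (16418266 to 16421281, pileup 15.4, percentile 32.2). Both lay inside the neighbouring gene EPS15L1, which encodes an endocytic adaptor.

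KLF4, a pluripotency reprogramming factor and regulator of epithelial barrier genes, had a strong upstream peak that was longer in control. The gene (chromosome 9, 107484852 to 107489769) lay inside a knockout peak of 7.50 kb (107483719 to 107491218, pileup 53.2, percentile 67.7) and a control peak of 8.07 kb (107484088 to 107492154, pileup 43.6, percentile 75.5). The upstream peak was 1.82 kb long and 58.0 kb from the gene in knockout (107547785 to 107549605, pileup 62.4, percentile 72.9), against 3.70 kb and 56.8 kb in control (107546591 to 107550292, pileup 72.5, percentile 92.6). The ratio of its pileup to that of the gene peak was 1.17 in the knockout list and 1.66 in the control list.

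Widths at KLF4 did not go one way: of 5 pairs the knockout peak was the longer in 3 and the shorter in 2, these 2 being at the gene and at the strong upstream site. A peak 13.6 kb upstream spanned 2.58 kb in knockout (107503356 to 107505936) and 1.14 kb in control (107503763 to 107504902). A peak downstream of the gene spanned 2.24 kb in knockout, 2.63 kb from the gene, and 1.59 kb in control, 2.98 kb from it. The farthest shared peak, 67.0 kb upstream in knockout, spanned 1.47 kb there and 0.977 kb in control. The knockout-only peak lay 58.8 kb downstream (107424599 to 107426012, pileup 33.2, percentile 51.4) and the control-only peak 97.3 kb upstream (107587083 to 107588299, pileup 25.2, percentile 54.3), close to the edge of the window. With a flank of 50 kb neither would have been counted.

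KLF5, which drives proliferation in basal epithelium, differed between the lists in whether a called peak covered its upstream start. Knockout cells had 1 peak of 8.07 kb over both start sites (chromosome 13, 73053766 to 73061836, pileup 82.0, percentile 81.9). Control cells had a peak of 7.01 kb (73055281 to 73062288, pileup 28.8, percentile 59.4) and, before it, a weak one of 0.386 kb (73053750 to 73054135, pileup 9.06, percentile 7.14). The upstream start at 73054976, whose promoter is printed above, lay in the gap between these control peaks, 305 bp from the nearer edge. Whether this stretch merely fell below the calling threshold in control was not tested. The downstream start at 73059005 lay inside the large peak of both lists.

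Elsewhere around KLF5 the lists held the same 2 shared downstream sites. The nearer one had a pileup of 46.0 in knockout (73089690 to 73091378, 12.2 kb from the gene) and 27.4 in control (73089564 to 73091659). The farther one had a pileup of 16.9 in knockout (73138340 to 73139257) and 14.1 in control (73138256 to 73139298). The control list had 2 weak peaks of its own, at 73140768 to 73141021 (pileup 8.76) and 73158651 to 73159493 (pileup 10.1), and the knockout list had none. The next peak outside the window was 257 kb from the gene in knockout and 196 kb from it in control. Such distances were not particular to KLF5. At KLF12 the next peak was 220 kb away in both lists, and at KLF4 it was 129 kb away in knockout and 199 kb in control.

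**Figure D3:**
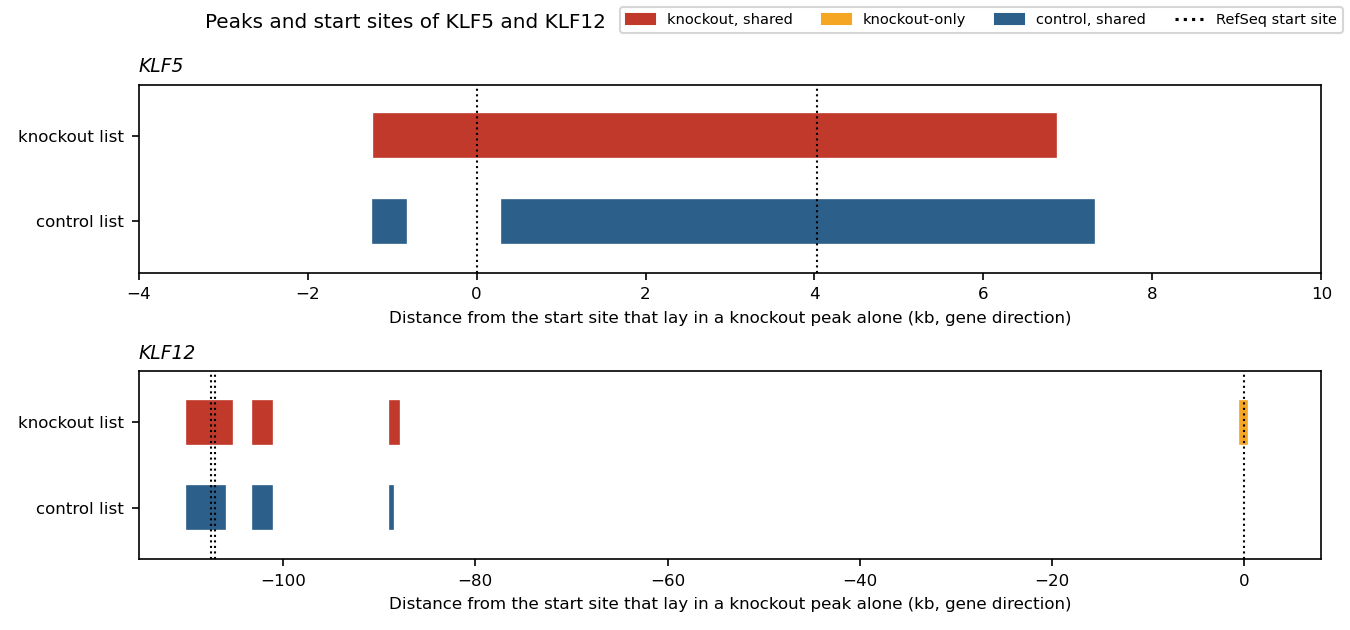
Peaks of the knockout list (upper row) and the control list (lower row) around the start sites of KLF5 and KLF12. The horizontal axis gives the distance in kb, in the direction of the gene, from the start site that lay in a knockout peak alone, and dotted lines mark the RefSeq start sites. At KLF5 the marked start falls in a gap between 2 control peaks, and at KLF12 it falls in a knockout-only peak of 0.735 kb.

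KLF7, known from axon growth in neurons, was acetylated strongly at its clustered starts in both genotypes. The peak over these starts was 4.94 kb long in knockout (chromosome 2, 207162769 to 207167704, pileup 111, percentile 90.7) and 4.41 kb in control (207163078 to 207167487, pileup 79.6, percentile 94.6). A start inside the gene, at 207134137, lay in a peak of 0.958 kb in knockout (pileup 19.3, percentile 28.0) and 1.67 kb in control (pileup 32.0, percentile 63.4). The broad peak 79.5 kb from the gene in knockout spanned 5.96 kb (207253386 to 207259340), and its control partner began 77.4 kb away and spanned 8.28 kb (207251211 to 207259490).

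The strongest knockout-only peak of all 10 genes by fold lay 0.699 kb beyond the upstream end of KLF7. It was 1.27 kb long (207174550 to 207175820), with a pileup of 42.5 at percentile 60.1, and the nearest control peak was 7.06 kb away. No start site of the promoter table lay in it. Another knockout-only peak (207121762 to 207122290, pileup 8.71) lay inside the gene, and the control-only peak (207248313 to 207249406, pileup 13.4) lay 74.5 kb upstream.

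KLF3, the repressor that recruits CtBP, had a single broad peak over the lower-coordinate end of the gene. It spanned 13.2 kb in knockout (chromosome 4, 38662945 to 38676129, pileup 76.7, percentile 79.9) and 12.6 kb in control (38663009 to 38675599, pileup 55.1, percentile 84.3). The only other shared site lay 41.4 kb away in knockout (pileup 23.9) and 42.3 kb away in control (pileup 14.8). Both knockout-only peaks were weak, at 38600935 to 38601221 (pileup 17.9) and 38752192 to 38752800 (pileup 8.82), at percentiles 24.5 and 0.785 of their list. Control had no peak of its own.

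KLF12, a repressor first described at the AP-2 alpha gene, held the most knockout-only peaks. The gene spans 620.0 kb on chromosome 13 (73686089 to 74306045), so its window was the longest. The knockout list held 10 peaks of 20.5 kb summed length, of which 5 were shared, and the control list held 7 peaks of 10.9 kb, of which 6 were shared. Control peaks covered 48.6% of the knockout length, the lowest value among the 10 genes in either list, and knockout peaks covered 91.7% of the control length. Whether 48.6% is unusual for the knockout list was not tested.

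The main peak of KLF12, over the start sites at 74133929 and 74134404, was strong in both genotypes. It spanned 4.62 kb in knockout (74132204 to 74136825, pileup 184, percentile 98.8) and 4.01 kb in control (74132884 to 74136895, pileup 74.8, percentile 93.3). Inside the gene, a knockout peak of 6.19 kb (73933608 to 73939792, pileup 50.1) covered 2 control peaks of 1.74 kb (73933772 to 73935506, pileup 26.0) and 1.90 kb (73937574 to 73939471, pileup 14.5). The most upstream start site, at 74306045, lay in no peak, 61.0 kb from the nearest knockout peak and 169 kb from the nearest control peak.

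The 5 knockout-only peaks of KLF12 ran from the 3′ flank to the 5′ part of the gene. The peak at 74026619 to 74027353 (0.735 kb, pileup 19.0, percentile 27.3) held the internal start at 74026888 whose promoter is printed above, and the nearest control peak was 87.1 kb away. Those at 74210864 to 74211493 (pileup 23.7) and 74242788 to 74245023 (2.24 kb, pileup 29.6) lay between the main peak and the most upstream start, 74.0 and 106 kb from any control peak. The fourth lay in the 3′ flank (73597559 to 73599834, pileup 29.1). The fifth, at 73698652 to 73698941 (pileup 12.4), was only 194 bp from the single control-only peak of the gene (73699136 to 73699776, pileup 7.69), and both would count as shared if a gap of 1 kb were allowed.

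KLF9, a target of glucocorticoid and thyroid hormone receptors, had few peaks, and those at and just before its start were strong. The peak at its start was 2.49 kb long in knockout (chromosome 9, 70412220 to 70414705, pileup 127, percentile 93.8) and 2.79 kb in control (70411985 to 70414771, pileup 73.3, percentile 92.8). A peak 3.29 kb upstream spanned 3.62 kb in knockout (70417949 to 70421566, pileup 219, percentile 99.6) and 3.40 kb in control (70418308 to 70421702, pileup 157, percentile 99.9). The upstream pileup was 1.73 times that at the start in the knockout list and 2.14 times in the control list. The knockout list had no peak of its own, and the control list had 2, inside the gene (70406713 to 70407767, pileup 16.3) and 21.1 kb upstream (70435716 to 70436608, pileup 16.6).

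KLF10, an early gene of TGF-beta signalling, was acetylated at the same sites in both genotypes, with mostly shorter peaks in knockout. The peak over its higher-coordinate end spanned 5.26 kb in knockout (chromosome 8, 102652876 to 102658138, pileup 158, percentile 97.3) and 6.06 kb in control (102652243 to 102658300, pileup 153, percentile 99.9). All 9 knockout peaks were shared, and 98.7% of their length lay inside control peaks. In the 9 pairs the knockout peak was the shorter in 8. The control list had 1 more peak, inside the gene (102650620 to 102651129, pileup 10.3), at percentile 12.1 of its list.

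The flank of KLF10 held 5 shared sites on the higher-coordinate side from 36.7 kb outwards. The strongest of them had a pileup of 59.1 in knockout (percentile 71.2, 98.0 kb from the gene) and 62.4 in control (percentile 88.5, 82.1 kb from the gene). These are different sites, and each site had a peak in both lists.

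KLF13, which activates a chemokine gene in T cells, also had mostly shorter peaks in knockout, at sites common to both lists. The start peak spanned 4.04 kb in knockout (chromosome 15, 31325121 to 31329163, pileup 133, percentile 94.8, fold 34.3) and 4.23 kb in control (31325194 to 31329424, pileup 64.1, percentile 89.3, fold 17.3). A peak inside the gene had a pileup of 96.4 in knockout (31391485 to 31393266) and 42.1 in control (31391529 to 31393465). Of 7 pairs the knockout peak was the shorter in 6. Each list had 1 weak peak of its own, at 31488355 to 31488937 in knockout (pileup 11.8), inside the neighbouring gene OTUD7A, and at 31471633 to 31472449 in control (pileup 9.04).

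**Figure D4:**
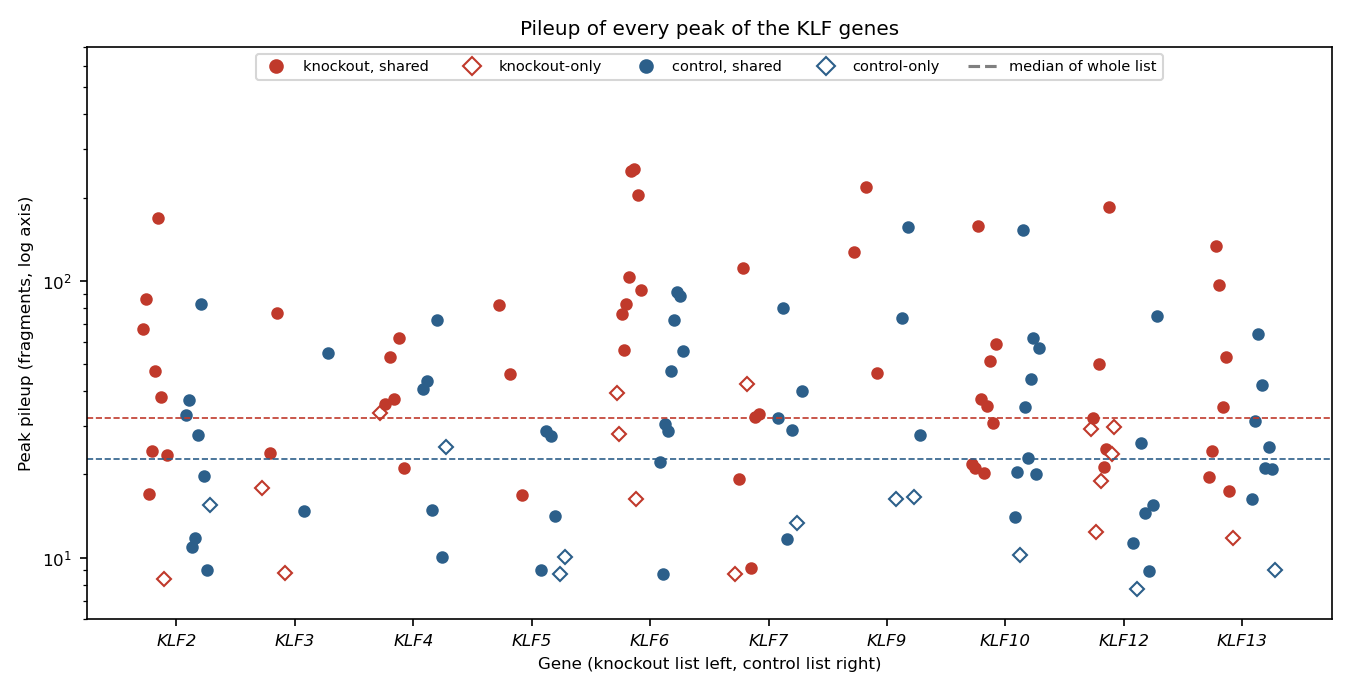
Pileup of every peak of each gene on a log axis, with the knockout list left and the control list right. Filled circles are shared peaks, open diamonds genotype-only peaks, and dashed lines the medians of the whole lists (32.0 in knockout, 22.7 in control). Among the open diamonds the highest are 42.5 in knockout, beside KLF7, and 25.2 in control, beside KLF4.

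Within each list the order of the genes by their strongest peak was as follows. In knockout KLF6 came first with 253.6, followed by KLF9 (219), KLF12 (184), KLF2 (169), KLF10 (158), KLF13 (133), KLF7 (111), KLF5 (82.0), KLF3 (76.7) and KLF4 (62.4). In control KLF9 came first with 157, followed by KLF10 (153), KLF6 (91.3), KLF2 (82.7), KLF7 (79.6), KLF12 (74.8), KLF4 (72.5), KLF13 (64.1), KLF3 (55.1) and KLF5 (28.8). Without replicates it is not known which neighbours in these orders differ beyond their spread. In each list 10 of the KLF peaks were in the top 10% by pileup. These were 14.3% of the 70 knockout peaks and 14.7% of the 68 control peaks, beside 10% of all peaks by definition.

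The strongest peak away from the start exceeded the start peak for the same 4 genes in both lists, KLF2, KLF4, KLF6 and KLF9. This ratio is taken within 1 list, so a linear scaling between the lists drops out. Whether pileup is a mean or a maximum over the peak is not stated, so how far peak width enters the ratio is not known. For KLF6 it was 1.02 in knockout and 1.27 in control, and for KLF5 0.561 in knockout and 0.953 in control. The lowest ratios were 0.272 for KLF12 in knockout and 0.268 for KLF3 in control. For KLF7 and KLF10 the strongest peak away from the start was a different site in each list. By fold the leading peak was at a different site in each list for KLF4, KLF5 and KLF6. For KLF4 it was the gene peak in knockout (fold 10.9, against 9.28 upstream) and the upstream peak in control (18.3, against 10.2 at the gene). For KLF5 it was the peak over the starts in knockout (9.87, against 5.64 for the nearer downstream peak) and that downstream peak in control (7.69, against 6.94 over the start). The KLF6 values were nearly level in knockout, 31.1 at the gene and 30.1 upstream, and the upstream peak led in control with 21.7 against 16.1.

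**Figure D5:**
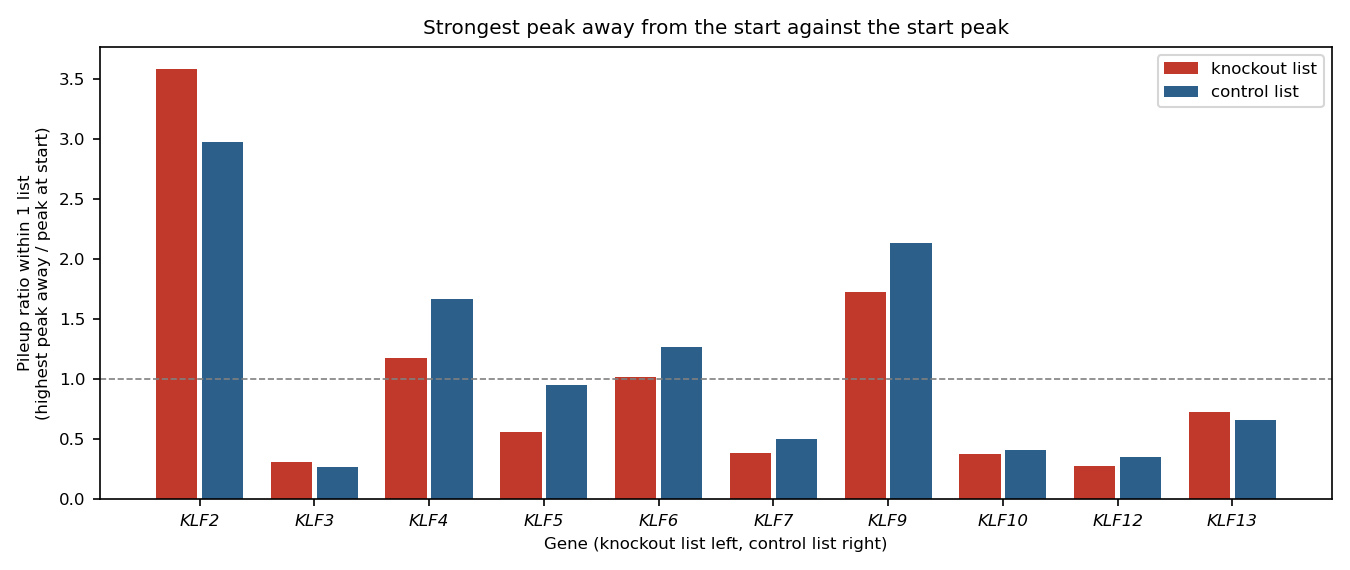
Pileup of the strongest peak away from the start divided by that of the strongest peak holding a start site (for KLF3 and KLF10, a gene end), within 1 list, with knockout left and control right. Bars above the dashed line at 1 are genes whose strongest peak lay elsewhere, and KLF2 stands highest at 3.59 in knockout and 2.98 in control.

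Most other members of the family, and all of the listed regulators of KLF proteins, also had a peak in both genotypes. The share over all protein-coding genes, for a peak in the gene or within 1 kb, was 69.3%. Of 17 further KLF and SP genes, which bind the same GC-rich sequences, 13 had a peak in the gene or within 1 kb in both lists and 4 in neither, namely KLF1, an erythroid factor, KLF18, SP8 and SP9. Their windows held 17 knockout-only peaks of 123 (13.8%, interval 8.26 to 21.2) and 14 control-only peaks of 114 (12.3%, 6.88 to 19.7). All 16 regulators and partners had a peak in both lists, among them the kinase gene MAPK7 (ERK5), the MEF2 genes, the ubiquitin ligase genes WWP1 and FBXW7, and the co-repressor genes CTBP1, CTBP2 and SIN3A. In their windows 18 of 125 knockout peaks were knockout-only (14.4%, 8.76 to 21.8) and 22 of 130 control peaks were control-only (16.9%, 10.9 to 24.5). Over all peaks the shares were 22.4% knockout-only and 18.0% control-only. Within 100 kb of any protein-coding gene they were 20.5% and 17.4%.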

How the data were processed

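The 8 libraries came from H3K27ac ChIP-seq (sequencing of DNA bound to precipitated chromatin). Per the submitters' processing notes, Bowtie2 2.3.5.1, MACS2 2.2.6 and the build hg38 were used; options, read filters, library depths and the pooling of replicates are not given in the sources used here. The authors deposited 1 peak list per genotype. Per the file headers, each peak has a position, a length, a pileup (a coverage signal), a fold enrichment (a ratio) and −log10 p and q values. Whether pileup is a mean or a maximum is not stated. The list of each genotype was identified from its name.

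The 8 knockout and 6 control peaks outside the autosomes and chromosome X were left out, and positions are 1-based as in the lists. Gene spans and start sites came from RefSeq tables for GRCh38.p14, the assembly of hg38; no genome sequence was used. Windows of different KLF genes did not overlap. Overlaps were computed in Python 3.11.15 (numpy 2.4.6, pandas 2.3.3, scipy 1.17.1), gave the same counts as bedtools 2.31.1, and were tested on simulated peaks. Percentiles rank a peak within its own list. Intervals are exact binomial ones at 95% (Clopper-Pearson), for counting error alone; neighbouring peaks are not independent. Figures were drawn with matplotlib 3.10.9. All 10 members are named, with the start peak, the genotype-only peaks and the peaks leading by fold or pileup. The 2 columns of −log10 p (1 per list) were not used, and −log10 q only for a stricter list. The members, context lists and motifs were chosen with earlier results of these data known. A planned comparison of zinc finger sequences was not run, as no protein table was used here.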

Additional observations from a re-analysis of the deposited data

How the results depend on the processing

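No replicate could be left out, and no paired analysis was possible because each genotype had 1 peak list. Narrower windows hold fewer peaks by construction: with a flank of 50 kb there were 9 knockout-only and 5 control-only peaks, and with the gene span plus 1 kb there were 6 knockout-only and 3 control-only peaks, beside 17 shared knockout and 19 shared control peaks. Requiring an overlap of 50% of the shorter peak gave 16 knockout-only and 11 control-only peaks, and allowing a gap of 1 kb gave 14 and 9. With a −log10 q of at least 5 in both lists there were 12 knockout-only and 5 control-only peaks. Beside them stood 42 shared knockout and 44 shared control peaks. The cause of the lower control count was not tested. No share over all peaks is given for these windows, overlaps, gaps or q values, so these counts have no background beside them. Restricting both lists to their upper 50% by fold gave 4 knockout-only and 8 control-only peaks, with 28 shared knockout and 29 shared control peaks. When partners could come from the whole other list, the upper 50% held 1 knockout-only and 1 control-only peak, with 31 shared knockout and 36 shared control peaks. These were 3.13% of the KLF peaks in knockout and 2.70% in control. Over all peaks of the upper 50% the shares were 3.39% knockout-only and 1.52% control-only, so the KLF counts were near the background. Of 140 counts for single genes under these alternatives, 86 stayed within 1.5 times the reported count. These include the counts reported as 0, which stayed at 0 throughout. Narrower windows or an allowed gap could not raise those, so the 86 overstate how stable the counts were. The depth of the libraries is not given in the sources used here. A peak called in 1 list alone therefore cannot be told apart from one that fell below the calling threshold in the other. The same holds for the ends of a peak that was shorter or split in 1 list.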

Other observations

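Of 8 other protein-coding genes that reached into the windows of the KLF genes, 4 had a peak of both lists within 1 kb of an end. A peak of the knockout list alone was found for 2, of the control list alone for 0, and of neither for 2. Ends outside the windows were included. No share over all genes is given for this measure, so these counts and the non-coding ones below have no background beside them. Those in both were AP1M1 and EPS15L1 near KLF2, PIBF1 near KLF5 and SMC5 near KLF9. Those in knockout alone were TLR1 near KLF3 (pileup 35.6) and OTUD7A near KLF13 (pileup 13.0), and TLR10 near KLF3 and ODF1 near KLF10 had none. Of 39 long non-coding RNA and microRNA genes, 15 had such a peak in both lists, 1 in knockout alone, 1 in control alone and 22 in neither. Some shared the peak at the start of their neighbour: KLF2-DT, KLF3-AS1 and KLF9-DT, which begin or end beside the KLF gene they are named for, and the microRNA gene MIR7845, inside the peak at the starts of KLF7. MYOSLID, a long non-coding RNA of smooth muscle, lay in the window of KLF7 and had an end peak with a pileup of 32.2 in knockout and 28.9 in control. Beside KLF6, LOC105376364 lay inside the upstream peak of 12.6 kb in knockout and 11.9 kb in control. The non-coding genes with an end peak in 1 list alone were LOC105374413 near KLF3 in knockout (pileup 8.82) and LINC01802 near KLF7 in control, where a shared peak reached the 1 kb window in control (pileup 39.9) and stopped short of it in knockout.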
